A study of Mus musculus with 78 samples.

Results

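The cytosolic heat shock chaperones were followed through a time course of methamphetamine, heroin and saline in the mouse striatum. The set was a list of 10 genes, Cryab, Hspb1, Hspa1a, Hspa1b, Hspa8, Hsph1, Dnajb1, Hsp90aa1, Hsp90ab1 and Hspd1, and every probe that the platform annotation gives to one of them was taken. That found 18 of the 45281 probes on the array, for 9 of the 10 genes and of 19057 named genes in all; Hsp90ab1 was not analysed here. Hspd1 encodes the mitochondrial chaperonin Hsp60, so the word cytosolic holds for the other members and not for it.

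Total RNA of striatum from C57BL/6J mice was measured on 78 Illumina arrays, which read gene expression as the brightness of probes. Methamphetamine, raised stepwise between 2 and 8 mg/kg, heroin, raised between 10 and 40 mg/kg, or saline was injected into the abdominal cavity 2 times daily for 12 days. Every one of the 3 treatments has 3 arrays for day 1, 3, 6 and 12 of treatment, as well as for the days that the labels number 13, 15, 18 and 24 in withdrawal. The remaining 6 arrays are from naive mice. All groups share the strain and the tissue, and the labels give no genetic change in any of them. Nothing beyond replicate numbers says whether the replicates are separate animals, so p-values measure the spread between these samples, which may be technical.

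Values are log2 signals after quantile normalization, on a scale where the median probe lies at 6.95. A difference is given on that log2 scale, ± its standard error, from a linear model (limma) that holds the 25 group means beside terms for the 13 slides. Adjusted p-values are Benjamini-Hochberg values over the 23810 probes bright enough to test, and the threshold is 0.05. Of the 18 member probes 14 were bright enough, and the 4 others stayed near background: 1 for Hspb1, 2 for Hspa1a and 1 for Hsp90aa1. One of the tested probes, ILMN_2498263 for Hspa1b, passed the brightness filter through the methamphetamine day 1 arrays alone, the only group in which every array read it above the array median (11 of the 78 arrays did), so it was left out of all counts, which run over 13 probes of 9 genes. Probes of 1 gene read the same RNA and are not independent.

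Heat shock chaperones bind unfolded proteins and help them fold, keep them soluble or pass them on for degradation. Their inducible members are switched on by heat shock factor 1 when unfolded protein accumulates, and in the brain hyperthermia and oxidative stress are known triggers. Methamphetamine raises body temperature in rodents, and opioids change it as well. The Hsp70 proteins (Hspa1a, Hspa1b, Hspa8) work in cycles with a J-domain partner such as Dnajb1, which starts the cycle, and with a nucleotide exchange factor such as Hsph1 (Hsp110), which resets it. Hsp90aa1 encodes the inducible Hsp90 and Hspd1 the mitochondrial chaperonin. Cryab (alpha B crystallin) and Hspb1 (Hsp27 in human, Hsp25 in mouse) are small heat shock proteins that hold unfolded proteins without using ATP, and in brain Cryab is known mainly from oligodendrocytes and astrocytes.

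Heat shock factor 1 binds inverted repeats of the unit GAA, so the 250 bases before the transcription start of the members were searched for GAANNTTC and TTCNNGAA, which each read the same on both strands and can overlap. RefSeq windows on GRCm38.p6 were given for 6 of the 10 members. The 4 members below are shown because the differences between drugs and between days turn on them, with matches to either word in capitals. They run 5′ to 3′ on the gene's strand: Hspa1a at chr17:34972157-34972406 (minus strand), Hspa1b at chr17:34959239-34959488 (minus strand), Hspb1 at chr5:135887669-135887918 (plus strand) and Dnajb1 at chr8:83607925-83608174 (plus strand).
Hspa1a: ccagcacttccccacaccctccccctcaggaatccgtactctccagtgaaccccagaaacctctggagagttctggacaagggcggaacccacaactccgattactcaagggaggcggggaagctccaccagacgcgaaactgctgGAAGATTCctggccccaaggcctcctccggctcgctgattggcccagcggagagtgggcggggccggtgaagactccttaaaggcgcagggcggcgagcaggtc
Hspa1b: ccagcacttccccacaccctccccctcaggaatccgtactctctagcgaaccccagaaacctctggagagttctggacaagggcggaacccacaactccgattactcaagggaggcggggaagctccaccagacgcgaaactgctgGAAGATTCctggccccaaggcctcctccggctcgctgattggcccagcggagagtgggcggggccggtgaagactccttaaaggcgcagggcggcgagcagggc
Hspb1: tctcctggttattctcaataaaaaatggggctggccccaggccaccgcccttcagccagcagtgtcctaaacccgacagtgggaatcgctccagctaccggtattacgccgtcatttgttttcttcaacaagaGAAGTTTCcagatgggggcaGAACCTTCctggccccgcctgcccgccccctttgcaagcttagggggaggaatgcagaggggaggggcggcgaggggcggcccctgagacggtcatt
Dnajb1: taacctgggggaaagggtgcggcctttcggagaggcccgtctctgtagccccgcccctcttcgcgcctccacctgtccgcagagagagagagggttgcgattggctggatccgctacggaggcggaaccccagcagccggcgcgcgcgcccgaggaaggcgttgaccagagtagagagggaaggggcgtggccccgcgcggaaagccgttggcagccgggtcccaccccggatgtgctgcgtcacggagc
Hspa1a and Hspa1b each hold 1 GAANNTTC, Hspb1 holds 2, and this Dnajb1 window holds neither word. In all, 5 of the 6 members with a window hold either word, in 6 of their 9 windows. These windows are not independent, since those of Hspa1a and Hspa1b are nearly identical and those of Hsph1 overlap. Among 32851 windows of 250 bases, 6.69% held GAANNTTC, 7.17% held TTCNNGAA and 12.84% held either. A match is a run of letters and no measured binding. The Hspa1a and Hspa1b windows are identical at 247 of 250 bases, and the transcripts of these neighbouring genes are known to be nearly identical as well, so whether their probes cross-hybridise is open and was not tested.

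Some libraries stood apart. The 3 methamphetamine day 1 arrays carried less signal of medium spiny neurons, the main striatal cell type: the mean over 7 marker genes lay between 8.87 and 11.88 there, against 12.36 to 12.54 on the saline day 1 arrays. Markers of hippocampus and cortex were higher on them, between 10.46 and 10.98 against 9.18 to 9.53 over 6 genes. Results that include these arrays are given with and without them, and the part of tissue makeup in them was not tested. In bulk tissue, fewer cells of a type and less RNA per cell cannot be told apart. The striatal markers Ppp1r1b and Rgs9 lay at the 99.7th percentile of an array in the median. Array medians of the raw signal ran from 95.05 to 184 intensity units, and the number of arrays limits the precision.

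The members covered nearly the whole range of the array, although brightness also depends on the probe and ranks no genes. The constitutive Hsp70 gene Hspa8 had probes averaging 14.84 (ILMN_1246458), 14.40 (ILMN_1249586) and 12.61 (ILMN_2918479). Hsph1 averaged 12.96, Dnajb1 11.96 and Cryab 11.49. The inducible Hsp70 probes averaged 8.09 for Hspa1a and 7.25 for Hspa1b (ILMN_2530672), and Hspb1 averaged 8.67. Single arrays of Hsp90aa1 ran from 10.46 to 12.71 on ILMN_2668319 and from 7.02 to 10.10 on ILMN_2752883, and those of Hspa1a from 7.47 to 9.76. For Hsp90aa1 the slide carried 90.2% and 94.2% of the variance, with slide means from 10.64 to 12.50 and from 7.13 to 9.82, so its raw values are read only after the slide term. For Hspa8 on ILMN_1249586 the slide carried 77.9%, and for Hspd1 on ILMN_2713841 80.5%. It carried 15.2% for Hspa1a, 21.5% for Dnajb1 and 25.2% for Cryab.

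During heroin treatment the small heat shock protein gene Cryab and 1 probe of the constitutive Hsp70 gene Hspa8 were lower than with saline. Cryab lay at 0.804 times the saline level and Hspa8 at 0.871 times, and no counted probe lay above saline. All 13 counted probes lay below 0, beside 50.2% of all probes. Those 2 of 13 probes passed the threshold, beside 1.05% of all tested probes, 0.441% of them in the lower direction.

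Cryab signals on the 12 heroin treatment arrays had their lowest value at 11.03, their median at 11.25 and their highest at 11.66, against 11.09, 11.61 and 12.05 with saline. The ranges overlap, while the heroin median lies below most saline values. By day, the heroin arrays read 11.56, 11.51 and 11.66 on day 1, against 11.69, 11.79 and 11.09 with saline. On day 3 they read 11.40, 11.16 and 11.03, against 11.63, 11.52 and 11.54. On day 6 they read 11.25, 11.24 and 11.12, against 11.59, 11.56 and 11.17. On day 12 they read 11.09, 11.35 and 11.05, against 11.85, 12.05 and 11.64. Heroin arrays thus lay wholly below saline on days 3 and 12, as did 4.15% and 4.47% of all probes, and overlapped with saline on days 1 and 6.

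The mean difference in Cryab over the 4 treatment days was -0.31 ± 0.059 (95% interval -0.43 to -0.19, adjusted p = 0.00217, limma, 12 arrays per group). On 9 of the 11 slides that held both treatments heroin was below saline, with a mean difference of -0.29 within slides, -0.19 in chip lot 1 and -0.33 in lot 2. The lots are a split of the slides by the first digits of the array names, and the labels name no lot. The single-day differences were 0.10, -0.43, -0.28 and -0.66 on days 1, 3, 6 and 12, and the heroin effect on Cryab was not shown to differ between those days, since 0 of 13 member probes passed that test, nor did any of all probes (0%), with 1 of 13 at an unadjusted p under 0.05 beside 4.24% of all probes. Without day 12 the Cryab difference was -0.20 and its adjusted p 0.60, with 19 probes, 0.0798% of all, past the threshold in that fit.

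Hspa8 on ILMN_1249586 ranged from 13.38 through a median of 14.32 to 14.69 on the heroin treatment arrays, against 13.84, 14.52 and 14.74 with saline. The groups overlap widely before slides are accounted for. On day 12 the heroin arrays read 13.38, 14.46 and 14.08, all below the saline arrays at 14.59, 14.52 and 14.51. The difference over treatment was -0.20 ± 0.045 (adjusted p = 0.0129, limma). The other probes of Hspa8 gave -0.10 (adjusted p = 0.128) and -0.14 (adjusted p = 0.586). The call was lost without heroin day 12 replicate 3 (adjusted p = 0.0530), and without day 12 as a whole the difference was -0.14 (adjusted p = 0.666).

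The remaining members were below the saline level without passing. The inducible Hsp70 gene Hspa1a differed by -0.14 (adjusted p = 0.549), its J-domain partner Dnajb1 by -0.11 (0.238) and Hspb1 by -0.08 (0.739). Over the 13 probes the median was -0.08 and the range -0.31 to -0.02. Day 12 contributed most: 5 of 13 probes, for Cryab, Dnajb1, Hspa8 and Hsph1, lay wholly below saline there, beside 4.47% of all probes. None of them passed on that day alone (0.118% of all probes did), with Cryab nearest (adjusted p = 0.0581) and 6 of 13 at an unadjusted p under 0.05 (8.52% of all probes).

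**Figure D1:**
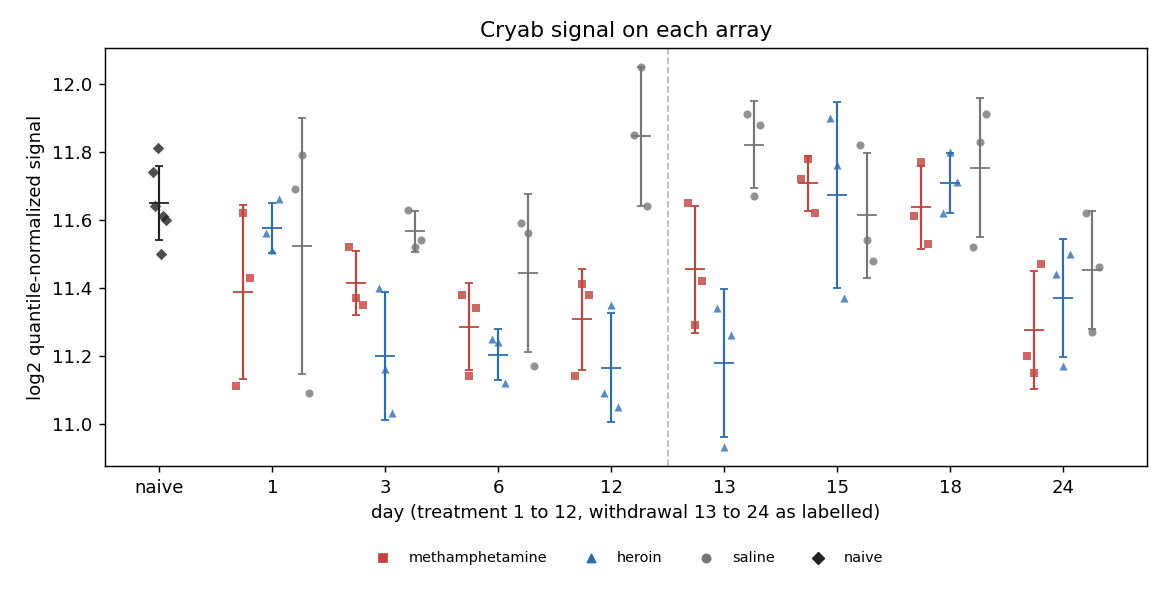
Cryab signal (log2, quantile-normalized, vertical axis) on each of the 78 arrays by day (horizontal axis), with squares for methamphetamine, triangles for heroin, circles for saline and diamonds for naive mice; horizontal bars are group means and whiskers 1 SD, and the dashed line separates treatment from withdrawal. Saline stood between 11.64 and 12.05 on day 12, above all methamphetamine (11.14 to 11.41) and heroin (11.05 to 11.35) arrays of that day.

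Beside these values stand markers of the cell types from which Cryab is known. In heroin treatment, of 9 oligodendrocyte markers 0 passed, with a median difference of -0.01. Of 8 astrocyte markers 1 was lower, the water channel gene Aqp4 at -0.23 (adjusted p = 0.000378), with a median of -0.00 over the list. Of 7 medium spiny neuron markers 0 passed (median -0.02). Their part in the Cryab result was not tested.

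During methamphetamine treatment Cryab was lower as well, at 0.848 times the saline level, and it was the only one of the 13 counted probes to pass. That is 1 of 13, beside 3.32% of all probes and 1.5% in the lower direction, so a single call among 13 says little about the members as a group. The members had no common direction, with 7 of 13 probes below 0 (49.4% of all probes) and a median of -0.03. The saline arrays are the same as in the heroin comparison, so the Cryab differences from saline for the drugs are not independent.

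Cryab on the 12 methamphetamine treatment arrays ranged from 11.11 through a median of 11.37 to 11.62, against 11.09, 11.61 and 12.05 with saline. The ranges overlap. The arrays read 11.11, 11.62 and 11.43 on day 1, then 11.52, 11.37 and 11.35 on day 3, then 11.38, 11.14 and 11.34 on day 6. On day 12 they read 11.14, 11.41 and 11.38, wholly below saline, as 6.76% of all probes were. The difference over treatment was -0.24 ± 0.059 (95% interval -0.36 to -0.12, adjusted p = 0.0144, limma), and methamphetamine was below saline on 10 of 11 slides, by -0.25 on average. By day it was -0.08, -0.27, -0.14 and -0.47.

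Without day 1 the Cryab difference was -0.29 with an adjusted p of 0.0966, and without day 12 it was -0.16 with an adjusted p of 0.393. Methamphetamine and heroin did not separate in Cryab, at 0.08 ± 0.059 (95% interval -0.04 to 0.20, adjusted p = 0.565). Beside these values, 1 of 9 oligodendrocyte markers was lower in methamphetamine treatment, Opalin at -0.24 (adjusted p = 0.0264), with a list median of -0.06. Of 8 astrocyte markers 3 were higher, Gfap by 0.72, Slc1a2 by 0.29 and Aldoc by 0.16, and 2 of 7 medium spiny neuron markers were lower, Rgs9 by -0.53 and Pde10a by -0.40. Their part in the Cryab result was not tested.

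Some Hsp70 system genes separated the drugs, with the methamphetamine day 1 arrays in the fit. Over the treatment days Hspa1a was 1.32-fold higher with methamphetamine than with heroin, its partner Dnajb1 1.14-fold and the Hspa8 probe ILMN_1249586 1.12-fold. These were 3 of 13 probes higher and 0 lower, beside 2.83% of all probes and 1.6% in the higher direction. The other Hspa8 probes did not pass, with mean differences within slides of 0.09 on ILMN_1246458 and 0.01 on ILMN_2918479. The inducible Hspa1b gave 0.03 on ILMN_2530672 (adjusted p = 0.810) and the nucleotide exchange partner Hsph1 -0.02 (adjusted p = 0.880), and without day 1 none of the 3 calls was kept. The widest single-day difference was on day 1.

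On day 1 the Hspa1a arrays read 9.76, 8.92 and 9.02 with methamphetamine, against 7.84, 7.81 and 8.20 with heroin. Saline arrays of that day read 8.65, 8.49 and 7.97, and naive arrays ran from 7.47 to 8.58. All 3 methamphetamine arrays were above every heroin, saline and naive array of these groups, as 11.9% of all probes were above heroin and 9.38% above saline on that day. Heroin overlapped with saline, with 2 of its arrays below the lowest saline array. On day 6 Hspa1a was no longer high with methamphetamine, at 7.72, 7.81 and 7.78, against 7.91, 7.90 and 7.90 with heroin.

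Against heroin on day 1, Hspa1a was 2.25-fold higher (1.17 ± 0.219 on the log2 scale, adjusted p = 0.000256, limma, 3 arrays per group). Against saline it was 1.60-fold higher, which missed the threshold (0.68 ± 0.226, adjusted p = 0.0635), while heroin gave -0.49 against saline (adjusted p = 1.000). Within the day, 3 of 13 member probes were higher than with heroin, beside 6.54% of all probes and 3.39% in the higher direction. The other 2 were Hspa1b on ILMN_2530672 (0.40, adjusted p = 0.0477) and Hsp90aa1 on ILMN_2668319 (0.46, adjusted p = 0.0423).

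Both of those calls were lost when single arrays were left out. The Hspa1b arrays read 7.62, 7.33 and 7.69 with methamphetamine, against 7.18, 7.10 and 7.46 with heroin, which overlap, and leaving out any 1 of 49 of the 78 arrays ended the call. The Hsp90aa1 arrays read 11.99, 12.23 and 12.06, against 12.05, 12.40 and 12.03, so that methamphetamine was not higher in the raw values and the difference appears only after the slide term. That call ended on leaving out any 1 of 15 arrays. The second Hspa1b probe, ILMN_2498263, read 7.10, 7.10 and 6.95 with methamphetamine, against 6.70, 6.79 and 6.57 with heroin and 6.36, 7.07 and 6.35 with saline. It was tested only because all of these methamphetamine arrays read it above their median, so its level is a description.

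Dnajb1 on day 1 read 12.44, 12.36 and 12.11 with methamphetamine, against 11.99, 11.86 and 12.02 with heroin and 12.11, 11.97 and 11.88 with saline. Every methamphetamine array was above every heroin array, as 11.9% of all probes were, and the day 1 difference was 0.31 (adjusted p = 0.0747). On withdrawal day 13 Dnajb1 read 12.19, 12.24 and 12.15 with methamphetamine, against 11.91, 11.77 and 11.83 with heroin, and Hspa1a 8.57, 8.29 and 8.07, against 7.96, 7.71 and 7.77. On that day 3 of 13 probes, for Dnajb1, Hspa1a and Hspa1b, were wholly above heroin, beside 6.96% of all probes. None passed the threshold on that day (0 of 13, and 0% of all probes), with 2 of 13 at an unadjusted p under 0.05 (7.59% of all probes).

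Over all treatment days the Hspa1a difference between the drugs was 0.40 ± 0.085 (adjusted p = 0.00381), that of Dnajb1 0.18 ± 0.041 (adjusted p = 0.00709) and that of Hspa8 0.17 ± 0.045 (adjusted p = 0.0261). Methamphetamine was the higher on 9 of 11 slides for Hspa1a, on 8 of 11 for Dnajb1 and on 7 of 11 for Hspa8. Without day 1 none passed: Hspa1a gave 0.15 (adjusted p = 0.897), Dnajb1 0.14 (adjusted p = 0.628) and Hspa8 0.11 (adjusted p = 0.826), and 3 probes in all, 0.0126%, passed in that fit. In chip lot 2 alone Hspa1a gave 0.34 (adjusted p = 0.0783). The Hspa8 call ended on leaving out any 1 of 9 arrays.

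The methamphetamine day 1 arrays are those with the shifted tissue markers. All 7 medium spiny neuron markers were lower on them than with saline, with a median difference of -1.60, and 2 of 6 hippocampal and cortical markers, C1ql2 and Prox1, were higher, with a list median of 0.59. The choroid plexus markers averaged between 7.79 and 10.45 on them, against 8.18 to 8.39 with saline. Over all treatment days, methamphetamine against heroin had 3 of 8 astrocyte markers higher (Gfap by 0.70, Aqp4 by 0.23 and Slc1a2 by 0.21), 2 of 5 microglia markers higher (Ctss by 0.23 and P2ry12 by 0.17) and 2 of 3 blood genes lower (Hba-a1 at -0.46 and Hbb-bt at -0.42). Of the 6 hippocampal and cortical markers C1ql2 was higher by 0.82 and Wfs1 lower at -0.28, and of 7 medium spiny neuron markers 0 passed, with a median of -0.40. The part of all these markers in the Hspa1a, Hspa1b, Hspa8 and Dnajb1 values was not tested.

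**Figure D2:**
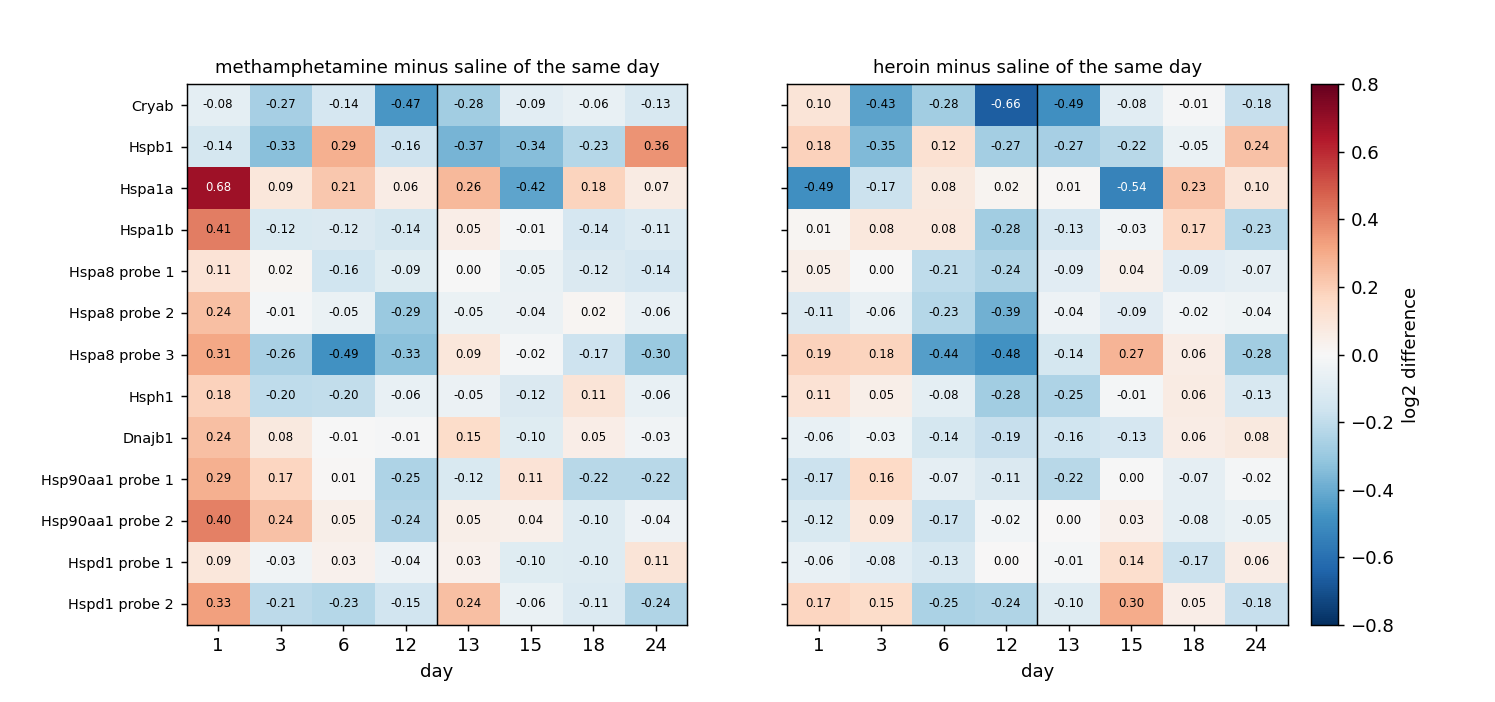
Log2 difference from saline of the same day (colour and printed value) for the 13 counted member probes (rows) and 8 days (columns), for methamphetamine on the left and heroin on the right, from the model with slide terms; the black line separates treatment from withdrawal. Hspa8 probes 1 to 3 are ILMN_1246458, ILMN_1249586 and ILMN_2918479, Hsp90aa1 probes 1 and 2 are ILMN_2668319 and ILMN_2752883, and Hspd1 probes 1 and 2 are ILMN_2713841 and ILMN_2639036. No single value passed the threshold; the highest is Hspa1a at 0.68 on methamphetamine day 1 and the lowest Cryab at -0.66 on heroin day 12.

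On single days no member probe passed against saline for either drug. For methamphetamine that is 0 of 13 on day 1, when 5.74% of all probes passed, and 0 of 13 on each later day, when 0.0462% passed on day 6, 0.0294% on day 12, 0.0168% on day 13, 0.0378% on day 18 and 0% on the others. On day 1, 4 of 13 were at an unadjusted p under 0.05 (Dnajb1, Hsp90aa1, Hspa1a and Hspa1b), beside 17.4% of all probes. For heroin it is 0 of 13 on each day, when 0.0042% of all probes passed on day 3, 0.0126% on day 6, 0.118% on day 12, 0.323% on day 15 and 0% on the others. In the methamphetamine day 1 comparison 11 of 13 counted probes were above 0. Those of Cryab and Hspb1 lay below 0, as 49% of all probes did. This comparison rests on the arrays with the shifted tissue markers.

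No member passed in withdrawal. Against saline this was 0 of 13 for methamphetamine (0.021% of all probes passed) and 0 of 13 for heroin (0.042%), and 0 of 13 for methamphetamine against heroin (0.0042%). At an unadjusted p under 0.05 there were 4 for methamphetamine (Cryab, Hsp90aa1, Hspa8 and Hspb1; 5.54% of all probes), 1 for heroin (Cryab; 10% of all probes) and 0 between the drugs (6.06%). Cryab had its withdrawal median at 11.57 with methamphetamine and 11.47 with heroin, against 11.65 with saline. The withdrawal differences were -0.14 (adjusted p = 0.883) for methamphetamine and -0.19 (95% interval -0.31 to -0.07, adjusted p = 0.242) for heroin.

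Cryab on withdrawal day 13 still read 11.34, 10.93 and 11.26 with heroin, against 11.91, 11.67 and 11.88 with saline, without overlap. On that day 5 of 13 probes, for Cryab, Hspa1b, Hspa8 and Hsph1, lay wholly below saline, beside 4.75% of all probes. From day 15 the groups overlap. Whether the drug effect differed between treatment and withdrawal was tested as well, and 0 of 13 passed for methamphetamine (0.374% of all probes) and 0 of 13 for heroin (0.021%). At an unadjusted p under 0.05 there was 1 for methamphetamine (10.8% of all probes) and 1 for heroin (9.13%). For Cryab that difference was -0.10 (adjusted p = 0.736) for methamphetamine and -0.12 (adjusted p = 0.688) for heroin, so treatment and withdrawal were not shown to differ. The methamphetamine effect between treatment days gave 0 of 13 as well (0.937% of all probes), with 2 at an unadjusted p under 0.05 (9.29%).

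No member passed between saline and naive arrays. All naive arrays lay at position F on their slides and the saline treatment arrays at positions A to C. Injection and position can therefore largely not be told apart here. With position as a further term 0 of 13 passed, as did 0% of all probes. Against naive mice 0 of 13 passed over the treatment days, beside 0.0126% of all probes, with 2 at an unadjusted p under 0.05 (Hspa8 and Hspd1), beside 7.39% of all probes. The inducible Hsp70 gene had its widest differences from naive on saline day 1, at 0.59 (adjusted p = 0.334), and on saline withdrawal day 18, at 0.54 (adjusted p = 0.199). Among saline arrays alone 1 of 13 differed between the 8 days, Hspb1 (adjusted p = 0.0406), beside 0.0294% of all probes, and leaving out any 1 of 38 arrays ended that call. With saline, Hspb1 read 8.00, 8.51 and 8.50 on day 6, then 9.25, 9.02 and 8.76 on day 15, then 8.64, 7.92 and 8.20 on day 24. The day 15 arrays lay above those of days 6 and 24, and the share of all probes with such a separation was not counted.

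Several members differed between days over all 3 treatments. Taking the mean of methamphetamine, heroin and saline on each day from 3 to 24, 6 of 13 member probes differed between days, beside 4.75% of all probes: Dnajb1 (adjusted p = 2.03e-06), Hspb1 (3.14e-06), Hspa1a (5.61e-06), Hspa8 on ILMN_1246458 (0.000107), Cryab (0.000367) and Hspa1b (0.00928). Hsph1 missed the threshold (0.0621), and neither Hsp90aa1 nor Hspd1 passed on any probe. This test was added after the values had been seen, and day 1 was left out because of its methamphetamine arrays.

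Hspa1a and its J-domain partner Dnajb1 had their highest day means on day 18 (8.59 and 12.21), although single methamphetamine arrays of day 1 read higher. Hspa1a read 8.62, 8.28 and 8.60 with methamphetamine, 8.73, 8.61 and 8.93 with heroin and 8.52, 8.49 and 8.55 with saline. Over the 9 arrays that is a range of 8.28 to 8.93, above all arrays of day 6 (7.72 to 7.95), day 12 (7.66 to 7.96) and day 24 (7.74 to 8.10). The range overlaps with those of day 1 (up to 9.76), day 3 (up to 8.44), day 13 (up to 8.57) and day 15 (up to 8.50). Dnajb1 read 12.36, 12.05 and 12.18 with methamphetamine, 12.35, 12.17 and 12.24 with heroin and 12.15, 12.13 and 12.23 with saline. Its 9 arrays lay above all of those of day 6 (11.65 to 11.96), day 12 (11.66 to 12.02) and day 15 (11.76 to 11.98). They overlapped with day 1 (up to 12.44), day 3 (up to 12.19), day 13 (up to 12.24) and day 24 (up to 12.16). The share of all probes with such a separation between days was not counted. All 3 treatments shared the high values of day 18.

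Against the mean of the other 6 days, Hspa1a on day 18 was 1.56-fold higher (0.64 ± 0.077) and Dnajb1 1.24-fold (0.31 ± 0.037), both with an adjusted p of 1.02e-06. Cryab at 0.21 (adjusted p = 0.0287) and Hspa1b at 0.19 (adjusted p = 0.0124) passed as well, making 4 of 13 higher and 0 lower, beside 1.61% of all probes and 0.819% in the higher direction. All 13 lay above 0, beside 50.1% of all probes, with a median of 0.10. The neighbours Hsph1 (0.07) and both Hsp90aa1 probes (0.02 and 0.04) did not pass.

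Hspb1 and Cryab, the small heat shock protein genes, were lower on day 6 and higher on day 15, and so was Hspa8 on ILMN_1246458. Hspb1 on day 6 read 8.33, 8.64 and 8.28 with methamphetamine, 8.33, 8.73 and 8.38 with heroin and 8.00, 8.51 and 8.50 with saline. On day 15 it read 8.71, 9.24 and 8.90 with methamphetamine, 8.94, 9.17 and 9.03 with heroin and 9.25, 9.02 and 8.76 with saline. The 2 days overlap by a single value, the heroin array at 8.73 on day 6 and the methamphetamine array at 8.71 on day 15.

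Against the other 6 days Hspb1 was lower on day 6 (-0.37 ± 0.063, adjusted p = 0.00241) and higher on day 15 (0.34 ± 0.063, adjusted p = 0.00208). Cryab gave -0.24 (adjusted p = 0.0311) and 0.22 (adjusted p = 0.0244), and Hspa8 on ILMN_1246458 gave -0.14 (adjusted p = 0.0165) and 0.14 (adjusted p = 0.0102). Dnajb1 was lower on day 6 (-0.16, adjusted p = 0.0398), but on day 15 Dnajb1 at -0.10 and Hspa1a at -0.12 lay below 0 without passing. Day 6 thus had 4 of 13 lower, beside 0.395% of all probes and 0.206% in the lower direction, and all 13 below 0 (50.2% of all probes) with a median of -0.14. Day 15 had 3 of 13 higher, beside 1.06% of all probes and 0.454% in the higher direction. Several of these calls depended on single arrays. Leaving out 1 array ended that of Cryab on day 6 (any 1 of 7 arrays), day 15 (5) and day 18 (7), that of Hspa8 on day 6 (5) and day 15 (1), that of Dnajb1 on day 6 (13) and that of Hspa1b on day 18 (2). The same calls were lost in chip lot 2 alone, and all of them but that of Hspa1b under median centring. Those of Hspb1 on both days and of Hspa1a and Dnajb1 on day 18 held in all 3 of these checks. Days 3 (0.428% of all probes), 12 (0.197%), 13 (0.0042%) and 24 (0.357%) had 0 of 13. At an unadjusted p under 0.05 those days had 3 (10.7% of all probes), 4 (10.8%), 2 (8.73%) and 2 (9.88%) of 13.

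**Figure D3:**
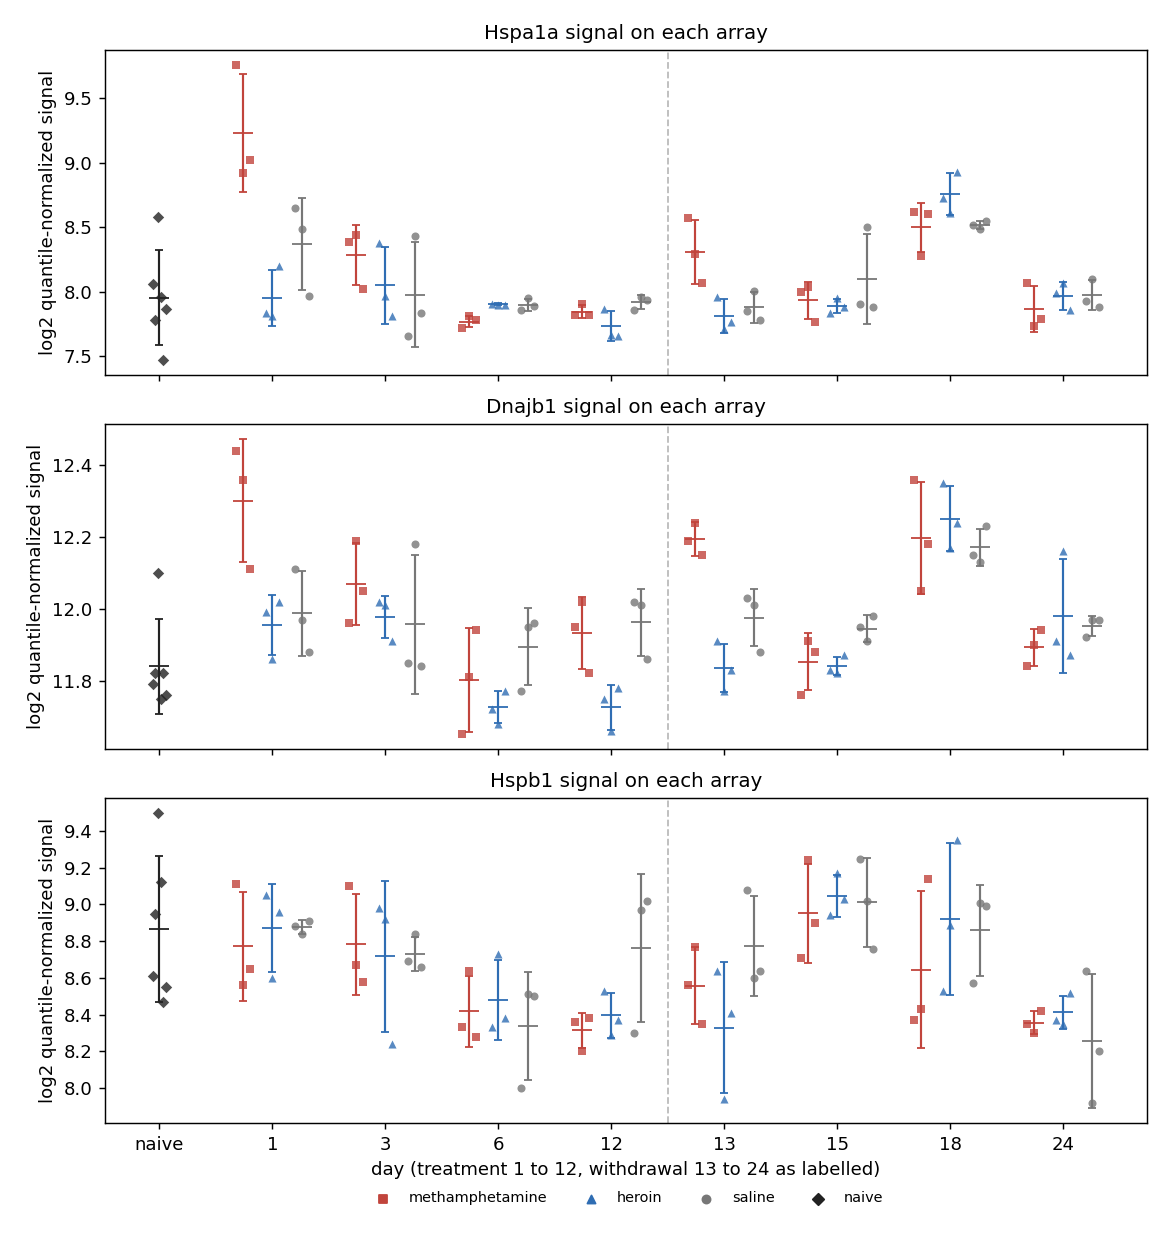
Signals of Hspa1a, Dnajb1 and Hspb1 (log2, quantile-normalized, vertical axes) on each of the 78 arrays by day (horizontal axis), with squares for methamphetamine, triangles for heroin, circles for saline, diamonds for naive mice, bars for group means and whiskers for 1 SD. Hspa1a and Dnajb1 are high in methamphetamine on day 1 and in all 3 treatments on day 18, while Hspb1 is high on day 15 (8.71 to 9.25).

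**Figure D4:**
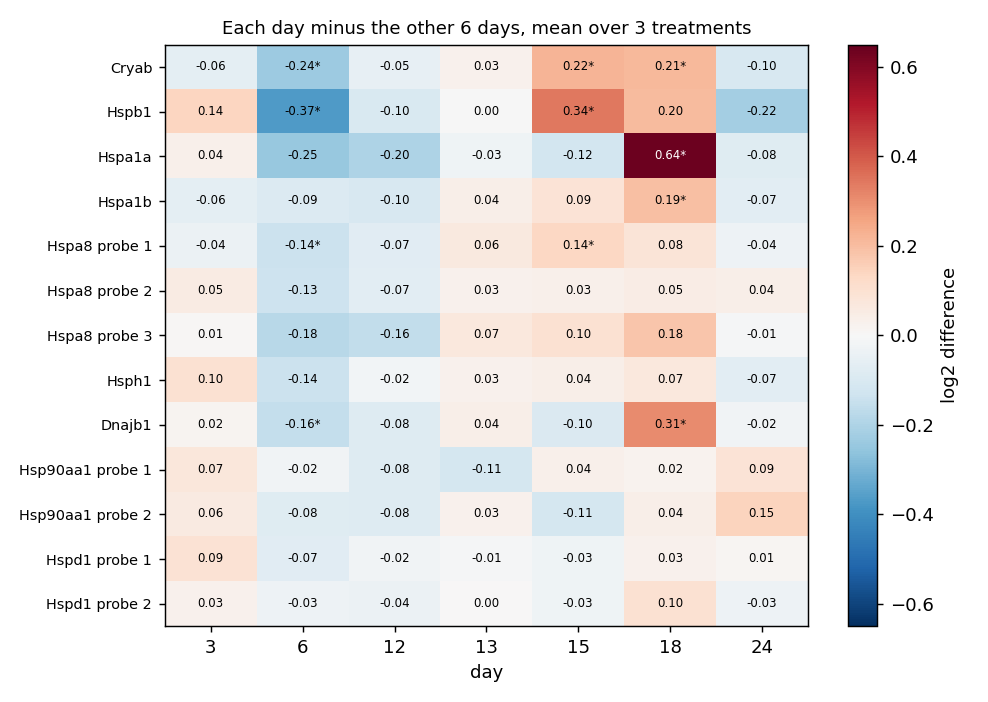
Log2 difference of each day from the mean of the other 6 days (colour and printed value), averaged over methamphetamine, heroin and saline, for the 13 counted member probes (rows, probes numbered as in the plot of differences from saline) and days 3 to 24 (columns); an asterisk marks an adjusted p under 0.05. Hspa1a stands out on day 18 at 0.64, and day 6 holds 4 asterisks, all below 0.

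The day of sampling was nearly tied to the place of an array on its slide. All day 1 arrays lay at position A, all day 12 arrays at C, all day 18 arrays at E and all naive arrays at F, and the other days were split over 2 positions each. With position as a further term 2 of 13 member probes still differed between days (Hspb1, adjusted p = 0.00818, and Dnajb1, adjusted p = 0.0469), beside 0.0882% of all probes. The day 18 differences were then 1.14 ± 0.277 for Hspa1a (adjusted p = 0.615) and 0.42 for Dnajb1 (adjusted p = 0.744), with wider errors, and none of the 11 calls of single days against the others was kept. Day and position can therefore largely not be told apart. Drug and saline arrays of 1 day lie on the same 1 or 2 positions, and with position added the heroin treatment difference of Cryab was -0.34 (adjusted p = 0.00102) and the day 1 difference of Hspa1a between methamphetamine and heroin 1.15 (adjusted p = 0.000971).

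The processed log2 table that the authors deposited held much less of this variation, with a median SD over day means of 0.00927 against 0.0520 in the normalized signals, and a median SD over all arrays of 0.0229 against 0.140. In it the day 18 differences were 0.0039 for Hspa1a (adjusted p = 0.954) and 0.011 for Dnajb1 (adjusted p = 0.383), and neither gene passed between days 3 and 24 (adjusted p = 0.200 and 0.113), although 8 of 13 member probes did, beside 53.1% of all probes. There Hspb1 averaged 8.71 on day 6 and 8.69 on day 15, the opposite order. The column of that table for methamphetamine day 1 replicate 3 equals the mean of the other 2 columns of that group at all 45281 probes (within 1e-04), and Hspa1a there on day 1 differed by -0.0067 between methamphetamine and heroin. How that table was made is not given in the sources used here. Of the marker lists, the 3 blood genes were lower on day 18 (3 of 3, median -0.48), 1 of 9 oligodendrocyte markers was lower (Opalin) and 1 of 8 astrocyte markers higher (Aqp4). On day 6 Gfap was higher, 1 of 8 astrocyte markers, and on day 15 Cldn5 was higher, 1 of 7 endothelial markers. No marker of the other lists passed on these days, and their part in the day differences was not tested.

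Of the other chaperone genes, 2 of the endoplasmic reticulum were lower with heroin and 1 co-chaperone passed in each methamphetamine comparison of the treatment days. Among 29 co-chaperones and related chaperones 0 passed for heroin treatment against saline (1.05% of all probes did), with a median of -0.01. For methamphetamine against saline 1 was lower, as 1.5% of all probes were: Dnajb2, a J-domain protein, at -0.15 (adjusted p = 0.0437). For methamphetamine against heroin 1 was higher, as 1.6% of all probes were: Hspa2, another Hsp70 gene, at 0.24 (adjusted p = 0.00109). Hspa2 was 0.40 above saline on methamphetamine day 1 (adjusted p = 0.0373), and without those arrays neither gene passed, with Dnajb2 at -0.096 (adjusted p = 0.668) and Hspa2 at 0.10 (adjusted p = 0.8292). The 2 tested genes of the heat shock factor list, Hsf2 and Hsbp1, passed in none of the drug, phase and day comparisons. Of 9 endoplasmic reticulum chaperones 2 were lower in heroin treatment, Hsp90b1, the Hsp90 of that compartment, at -0.19 (adjusted p = 0.0274) and Creld2 at -0.18 (adjusted p = 0.025), with a list median of -0.16. In that direction 0.441% of all probes passed. None of the 9 passed for methamphetamine against saline (3.32% of all probes did) or against heroin (2.83%).

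Between days 3 and 24, 7 of the 29 co-chaperones differed, beside 4.75% of all probes. On day 18 the Hsp110 relative Hspa4l was higher by 0.28, the Hsp90 partner Chordc1 by 0.24 and the Hsp90 immunophilin Fkbp4 by 0.12, and none of the list was lower. On day 6 the Hsp90 activator Ahsa1, the Hsp70 and Hsp90 adaptor Stip1 and Fkbp4 were lower by 0.13 each on the log2 scale, and the small heat shock protein Hspb6 was higher by 0.24. Of all probes 1.61% passed on day 18 and 0.395% on day 6. Calls of this list on further days did not all match the members: Hspa4l was lower on day 3, and Fkbp4 was higher on day 15 and lower on day 24. Of all probes 0.428% passed on day 3, 1.06% on day 15 and 0.357% on day 24. Of the endoplasmic reticulum chaperones 7 of 9 differed between days, beside the same 4.75% of all probes. Hsp90b1 (-0.20), Pdia6 (-0.16) and Pdia3 (-0.13) were lower on day 6 and Sdf2l1 (0.21) was higher on day 18. Creld2 was higher on day 3 and lower on day 12, when 0.197% of all probes passed, and Pdia3 was higher on day 15. The cold-inducible RNA-binding gene Cirbp differed between days as well (adjusted p = 1.9e-05): it was higher on day 6 (0.30, adjusted p = 0.00241) and lower on day 18 (-0.23, adjusted p = 0.0131). On heroin day 12 Cirbp was 0.71 above saline (adjusted p = 0.0328). Cirbp is 1 of 2 genes of its list. The other, Rbm3, passed in none of these comparisons and was lower on day 15. The list median was 0.15 on day 6, -0.07 on day 18 and 0.39 on heroin day 12. The same day and position layout applies to all these values.

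Across the 78 arrays, with slide means removed, all 36 pairs of members correlated positively, beside 50.1% of all pairs of the 12371 tested genes. Pearson's r ran from 0.08 to 0.82 with a median of 0.40, a value that 2.24% of all gene pairs reached, and 30 pairs passed an adjusted p of 0.05 by Pearson's r and by Spearman's rho (permutation tests with 100000 resamples, adjusted over the 36 pairs). The highest was the Hsp70 gene with its J-domain partner, Hspa1a and Dnajb1, at r = 0.82 and rho = 0.80 (adjusted p = 4e-05 and 3.6e-05 in the permutation test). It was 0.82 without the 2 arrays farthest from the Hspa1a median, 0.82 in each chip lot and 0.81 without the methamphetamine day 1 arrays. With group means removed too, it was 0.59, so that arrays of the same drug and day also varied together. Within groups 30 of the 36 member pairs were positive and 6 negative, from -0.09 for Cryab with Hspa1b to that 0.59, with a median of 0.21, which 14.5% of all gene pairs reached.

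The small heat shock proteins Cryab and Hspb1 gave r = 0.63 and rho = 0.64, and r = 0.38 within groups. Cryab and Hspa8 gave 0.60 over all arrays but 0.04 within groups. Hspa1a and Hspa1b gave 0.61, and 0.32 within groups. Cryab and Hsp90aa1 stood lowest at 0.08 (adjusted p = 0.49 in the permutation test). Probes of the same gene agreed only in part, with r between 0.37 and 0.52 for Hspa8, 0.63 for Hsp90aa1 and 0.33 for Hspd1.

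**Figure D5:**
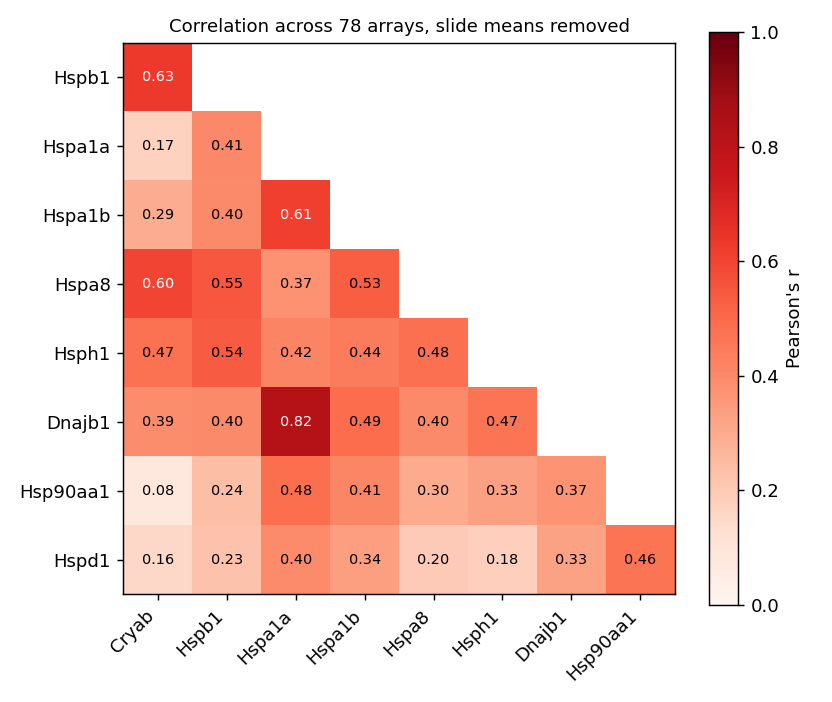
Pearson's r (colour and printed value) between members, 1 probe each, across 78 arrays after slide means were removed. Hspa1a with Dnajb1 is the highest at 0.82 and Cryab with Hsp90aa1 the lowest at 0.08.

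Outside the members, the genes whose values over the 78 arrays were most like the mean of the members' standardized values were Chordc1 (r = 0.83), Zmym1 (0.82), Vps13a (0.80), Btaf1 (0.77), Xbp1 (0.77), Sdf2l1 (0.76), Serpinh1 (0.76) and Creld2 (0.73), among 12362 genes ranked. Of these Chordc1 is a partner of Hsp90, Serpinh1 is the collagen chaperone Hsp47, and Xbp1 is a transcription factor of the unfolded protein response. The co-chaperone Bag3, which binds Hsp70, ranked 13 (r = 0.70). The mean member score was highest on methamphetamine day 1 (1.39) and lowest on heroin day 6 (-1.15).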

How the data were processed

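The deposited signal table is marked as not normalized and holds linear intensities, 1 for every probe on every array, per the file headers; background correction and scanner software are not given in the sources used here. A second deposited table, of log2 values normalized by the authors in a way not given, served as an alternative. Per the labels, biotinylated cRNA of striatal total RNA was hybridised to slides of 6 arrays. No detection p-values were found, so the intensities were quantile-normalized and log2-transformed, and a probe was kept where, in any of the 25 groups, every array read it brighter than the array median (23810 of 45281 probes, 12371 genes). Of the probes, 34885 had 1 gene symbol in the platform annotation, 18 had several and 10378 were unnamed. The series holds 78 arrays on 13 slides. Chip lot 1 (18 arrays) and lot 2 (60 arrays) are names used here for a split by the first digits of the array names. The labels and headers state no lot. The labels number the withdrawal days 13, 15, 18 and 24, and these are used as names.

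All 78 arrays entered 1 fit in limma 3.58.1 (R 4.3.3; 37 coefficients, 41 residual degrees of freedom), with two-sided moderated tests and Benjamini-Hochberg adjustment over all tested probes at 0.05. Phase effects are means over 4 days, and single-day differences share the pooled spread. Because of the slide terms they differ from differences of raw means. The scripts were tested on simulated data. Figures were drawn with matplotlib 3.10.9 in Python 3.11.15.

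The members, the gene lists and the tests were chosen with earlier results of these data known. All members were described, with values per array where a probe passed a test; of other lists up to 4 genes per direction with the largest change among those past the threshold were named, and for likeness the 8 genes with the highest correlation. Bag3, the member scores and the day comparison were added after values were seen.

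Alternatives were the deposited values, other filters and background correction (normexp, offset 50), median centring, 1 probe per gene, the slide left out or as a random block (correlation 0.372), position, lot 2, a replicate block, robust trended variances, only the groups compared, and leaving out arrays. Fits without heroin day 12 or without 4 arrays (methamphetamine day 1 and saline withdrawal day 15 replicate 2), and position in the day test, were added after the data had been seen. Without methamphetamine day 1, day 1 was left out of all treatment means. No 2 arrays were identical (highest correlation between arrays 0.997).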

Additional observations from a re-analysis of the deposited data

Results flagged for a closer look

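Among the 6 naive arrays, 4 of the 18 member probes had 1 array far from the others by Dixon's test. The nominal rate of that test is about 1 group in 20. It was run on member probes only, so the share among all probes is not known. Probes read on the same array are not independent, and naive replicate 4 was flagged repeatedly. Naive replicate 4 read 11.37 for Hspa8 on ILMN_2918479, while the other five lay between 12.60 and 13.04. It read 7.87 for Hspd1 on ILMN_2639036, while the others lay between 8.68 and 9.12, and 7.02 for Hspa1a on the dim probe ILMN_1225328, while the others lay between 6.63 and 6.76. Naive replicate 3 read 12.10 for Dnajb1, while the others lay between 11.75 and 11.82; its Hspa1a value of 8.58 was also the highest naive one.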

How the results depend on the processing

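Under 16 alternatives 177 of 208 counts of called member probes stayed within 1.5 times and 31 moved. For heroin against saline in treatment the count of 2 became 1 under median centring, 1 probe per gene, slide as a random block, no slide term and lot 2 only, and 0 without the heroin day 12 arrays and with only the groups compared. The Cryab call held in 14 of the 16, and its difference ran from -0.45 to -0.08. For methamphetamine against saline the count of 1 became 0 under the deposited log2 values, no slide term, lot 2 only, only the groups compared, and without the methamphetamine day 1, the heroin day 12 or 4 arrays (methamphetamine day 1 and saline withdrawal day 15 replicate 2). For methamphetamine against heroin the count of 3 became 1 with only the groups compared, and 0 under the deposited values, in lot 2, and without methamphetamine day 1 or the 4 arrays. The methamphetamine effect between treatment days gave 1 in place of 0 with no slide term. The saline count between days of 1 became 0 under median centring, 1 probe per gene, slide as a random block, no slide term, position, lot 2, robust trended variances, only the groups compared, and without the 4 arrays. The count of 6 between days 3 and 24 became 2 with position. Leaving out single arrays gave 1 to 2 for heroin and for methamphetamine against saline in treatment, 2 to 3 between the drugs, 0 to 1 for saline days and 6 to 7 for days 3 to 24.

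Reversed were, under the deposited values, Cryab (0.00052) and Hspb1 (0.0053) on day 6, Hspb1 on day 15 (-0.0052) and Hspa1a between the drugs on day 1 (-0.0067), and with no slide term Hsp90aa1 between the drugs on day 1 (-0.069). The cause was not tested. The replicate numbers were not shown to pair the samples. Of 72 same-number pairs 15 correlated above 0.1 and the highest reached 0.355. Their median was 0.0271 against -0.0193 for other numbers, a difference that was not tested. With the replicate block the saline count between days became 0 and no other count moved by over 1.5 times. Dim probes and 3 arrays per group limit single-day differences.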
